A study of Drosophila melanogaster with 2 samples.

Results

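The genes described here encode enzymes of glycolysis in Drosophila melanogaster, and the question was where chromatin was open at them in neurons of the adult mushroom body (MB), the learning and memory centre of the fly brain. The 10 genes, Hex-A, Pgi, Pfk, Ald1, Tpi, Gapdh1, Gapdh2, Pgk, Eno and PyK, were chosen by name and are 10 of 17684 annotated genes, of which 13922 are protein-coding, on 6 chromosome arms. A peak was counted for a gene when it overlapped the RefSeq span of that gene in release 6 of the genome, extended by 500 bp on both sides. All 10 symbols were found in the gene table without the use of a synonym.

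Accessibility was measured by ATAC-seq, in which Tn5 transposase inserts sequencing adapters into accessible DNA, so that pileups of fragments called as peaks mark open chromatin. There was 1 group, naive control flies with 2 replicates, and hence no comparison between fly groups. In a w* background the flies carried UAS-unc84::2xGFP over tubGal80(ts), and the RNAi insertion P{VALIUM20-mCherry.RNAi}attP2 over the driver R14H06-Gal4, and each sample was a pool of 50 to 60 flies of an age that the labels do not give. R14H06-Gal4, a driver built from an enhancer of rutabaga, expresses the GFP-tagged nuclear envelope protein unc84 in MB neurons under the control of a temperature-sensitive Gal80 repressor, the mCherry RNAi is a control that targets no fly gene, and anti-GFP beads captured the tagged nuclei from homogenised heads (INTACT).

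Glycolysis splits glucose into pyruvate and yields ATP without oxygen. An early phase spends ATP to phosphorylate the sugar and cleave it into triose phosphates, and a later phase recovers ATP while the trioses are oxidised and rearranged to pyruvate. In the fly nervous system much of this flux is known to run in glia, which pass lactate and alanine on to neurons. Open chromatin at a gene is a property of its regulatory DNA and does not measure its transcript or its enzyme.

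Replicate 1 held 17942 peaks with a median width of 730 bp and replicate 2 held 15248 with a median width of 768 bp. Where peaks overlapped they were joined, and the 14656 joined regions that hold a peak from each replicate are called consensus peaks (median width 918 bp). The fold enrichment of a peak is the ratio of its signal to the local background as the authors' peak caller gave it, with medians of 2.33 and 2.55 over all peaks of replicates 1 and 2. The study gives read totals that differ between the libraries but does not say which replicate has which, and the lists hold no counts per peak. The spread between the 2 replicates is the only error that can be given. Of the marker genes looked up, all 11 for MB neurons and all 6 for any neuron had a consensus peak. So did 4 of 6 for glia (moody, Gs2, Eaat1 and, beyond its span, wrapper, but not repo or alrm). For photoreceptors it was 2 of 6 (norpA, with folds of 4.66 and 4.93, and, beyond its span, trp, but not ninaE, ninaC, Arr1 or Arr2). For fat body, muscle and hemocytes it was 3 of 8 (Lsp2 and, beyond their spans, Hml and NimC1), with no end covered. Of all protein-coding genes, 68.0% had a consensus peak. The marker lists were not matched for gene length, and the MB neuron genes span 2656 bp (prt) to 87915 bp (mub). The photoreceptor genes without a peak span 1676 bp (Arr2) to 6643 bp (ninaC), and norpA spans 42783 bp. The part of other cells in the peaks below was not tested.

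Each of the 10 genes had open chromatin in both replicates. A consensus peak lay in the extended span of 10 of the 10 genes, by the same rule as in 62.3% of all genes on the arms, 68.0% of protein-coding genes and 74.7% of protein-coding genes as long as the members (1480 to 7718 bp). The span itself was touched at 10 of the 10, against 54.9% of all genes, 61.3% of protein-coding genes and 68.1% of those of like length. The gene table gives no strand, so that either end of a span stands in for the transcription start site. An end was covered at 9 of the 10 genes, all but Eno, against 50.1% of all genes, 56.2% of protein-coding genes and 63.1% of those of like length. No test was made of these counts, since the genes were chosen with results of these data known.

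Together the genes had 15 consensus peaks, 1 each at Hex-A, Pgi, Tpi, Gapdh1 and PyK and 2 each at Pfk, Ald1, Gapdh2, Pgk and Eno. Among protein-coding genes of any length, 27.7% had 2 or more. The median span of protein-coding genes was 2163 bp, against 4504 bp for the members. Of the 15 peaks, 9 covered an end of the gene, 4 lay inside its span and 2 lay wholly beyond it. Replicate 1 had 17 peaks at these genes and replicate 2 had 18, with median folds of 3.48 and 3.37. All 18 peaks of replicate 2 fell in a consensus peak, and 2 small peaks of replicate 1, at Ald1 and Eno, did not.

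**Figure D1:**
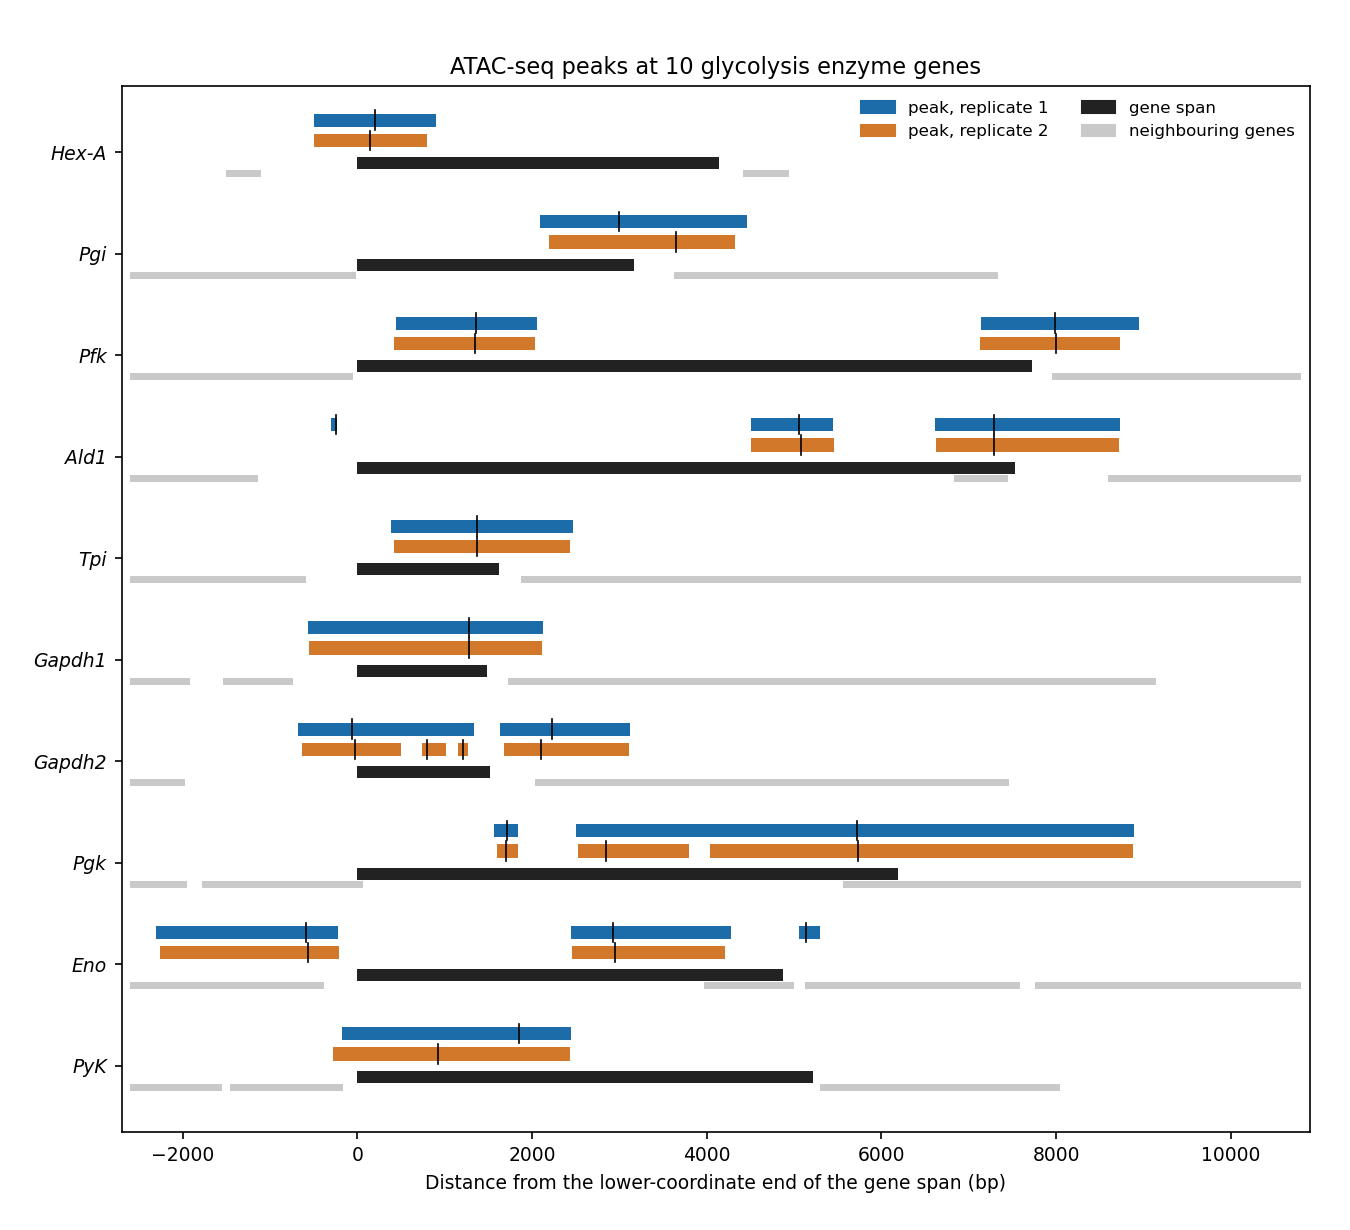
Peaks of replicate 1 (blue) and replicate 2 (orange) at each glycolysis gene in the order of the pathway, by distance in bp from the lower-coordinate end of the gene span (black), with summits as vertical lines and neighbouring genes in grey. Peaks of the replicates overlap at all 10 genes, apart from a 66 bp peak at Ald1 and a 242 bp peak at Eno in replicate 1 only, and the peak over Pgk is 6389 bp wide in replicate 1 and split in replicate 2.

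Hex-A, the hexokinase that phosphorylates glucose as it enters the pathway, lies on X from 9585675 to 9589813. Its only peak covered the lower end of the span and was 1397 bp wide in replicate 1 and 1291 bp in replicate 2. The fold was 3.48 and 3.37, and the summits lay 199 and 143 bp inside the gene. No end of another gene fell in this peak, and the rest of the 4139 bp span held no peak in either replicate.

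Pgi, the isomerase that turns glucose phosphate into fructose phosphate, lies on 2R from 8910900 to 8914069. A peak of 2375 bp in replicate 1 and 2135 bp in replicate 2 covered its upper end, with folds of 3.63 and 3.44. Its summit was at different places in the replicates, 173 bp inside the upper end in replicate 1 and 474 bp beyond that end in replicate 2. The annotated end of lin, 455 bp away, fell in the same peak. CG30349 lies 15 bp from the lower end of Pgi, where neither replicate had a peak.

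Pfk encodes phosphofructokinase, which commits the sugar to glycolysis and is the classical point of control, and lies on 2R from 10109740 to 10117457. Its stronger peak lay inside the span, with summits 1353 and 1346 bp from the lower end, widths of 1611 and 1614 bp and folds of 6.85 in replicate 1 and 6.39 in replicate 2. No other annotated gene overlapped it. By fold this was the strongest peak of the pathway in both replicates, though Tpi was close in replicate 2 (6.37). Its mean fold was higher than that of 96.3% of all consensus peaks. By -log10 q (1117 and 457) it was below the peak over the upper end of Ald1 (1221 and 541), and in replicate 2 also below that of Tpi (514). The other peak of Pfk covered the upper end with folds of 3.98 and 3.72 and also held an end of dmpd, 237 bp away.

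Ald1, the aldolase that cleaves fructose bisphosphate into trioses, lies on 3R from 26254069 to 26261591. A peak over its upper end was 2115 bp wide in replicate 1 and 2103 bp in replicate 2, with folds of 4.31 and 4.05 and the summit at the same base in both. That peak also held ends of CG6154 and of asRNA:CR44321, an antisense RNA whose 614 bp lie within Ald1. A narrower peak inside the gene, 941 and 948 bp wide, had folds of 3.32 and 3.37 and its summits 2461 and 2447 bp from the upper end. Below the lower end, replicate 1 alone had a peak of 66 bp with a fold of 1.16 and a -log10 q of 2.32, among the weakest in its list.

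Tpi, the triose phosphate isomerase that interconverts the products of aldolase, lies on 3R from 30132981 to 30134599. Its peak was 2076 bp wide in replicate 1 and 2014 bp in replicate 2, with folds of 6.45 and 6.37 and summits 249 and 254 bp inside the upper end. The peak covered 76.0% of the 1619 bp span and its mean fold exceeded that of 95.7% of consensus peaks. Ends of AdoR, the adenosine receptor gene, and of asRNA:CR46082 lay in it. The next consensus peak outside the extended span was 14971 bp away.

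The glyceraldehyde phosphate dehydrogenase step, which oxidises the triose and reduces NAD, has a pair of genes on different chromosomes. Gapdh1, on 2R from 7791901 to 7793380, was the only member with both ends covered, by a peak of 2682 bp in replicate 1 and 2669 bp in replicate 2 that spanned 100% of the gene. The folds were 4.81 and 4.16, the widest ratio between replicates among the members (1.15), and the summit lay 204 bp inside the upper end in both. An end of PolZ1, 245 bp away, was in the peak.

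Gapdh2, on X from 15868145 to 15869661, had its main peak over the lower end, with folds of 4.52 and 4.50 and summits 67 and 31 bp outside the gene. Replicate 1 had 1 peak of 2015 bp here, and replicate 2 had a peak of 1138 bp followed by 2 weak ones of 280 and 118 bp inside the gene (folds of 1.40 and 1.44). The share of the span under peaks was therefore 88.3% in replicate 1 and 59.4% in replicate 2. A weaker peak beyond the upper end, 112 bp from it, had folds of 2.62 and 2.65 and held an end of CG16952. By strongest peak the paralogs overlapped, since both Gapdh2 values fell between the values of Gapdh1.

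Pgk, the phosphoglycerate kinase that makes the first ATP of the later phase, lies on 2L from 2746880 to 2753068. It had the widest open region of the pathway. In replicate 1 a peak of 6389 bp ran 2507 to 8895 bp from the lower end, across the upper end of the gene and into Bacc, whose span overlaps Pgk by 624 bp. It was the widest of all peaks of replicate 1 and of all 14656 consensus peaks, of which the next was 5142 bp. In replicate 2 the same region was called as peaks of 1264 and 4841 bp, the longer of them ranked 3 by width in its list.

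The fold of the wide region was 2.43 in replicate 1 and 2.60 in replicate 2, the lowest strongest value of any member, with summits 472 and 452 bp inside the upper end of Pgk. Its mean fold was above that of 45.7% of consensus peaks. A small peak inside the gene, 280 and 242 bp wide, had folds of 1.41 and 1.41. The low place of Pgk holds for fold only. By -log10 q (533 and 311) the wide region was above the peaks of Hex-A, Pgi, Gapdh2 and Eno in both replicates. It was below the strongest peaks of Pfk, Ald1, Tpi and PyK, and Gapdh1 was higher in replicate 1 and lower in replicate 2. Wide regions are merged by the caller across gaps of up to 100 bp, and the part of this setting in the width was not tested.

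Eno encodes enolase, which dehydrates phosphoglycerate to phosphoenolpyruvate, and lies on 2L from 1724768 to 1729636. It was the only member with neither end covered. A peak inside the span was 1824 bp wide in replicate 1 and 1759 bp in replicate 2, with folds of 2.85 and 2.96 and summits 2925 and 2952 bp from the lower end, and it held an end of Rrp40, an exosome subunit gene that overlaps Eno by 905 bp. The other peak, with folds of 3.23 and 2.95, ended 215 bp short of the gene, had its summits 588 and 562 bp from it, and held an end of Rim2. Replicate 1 alone had a further peak of 242 bp beyond the upper end with a fold of 1.29 and a -log10 q of 12.7. The order of the 2 consensus peaks by fold differed between replicates, so that they cannot be ranked.

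PyK, the pyruvate kinase that makes ATP and pyruvate in the last step, lies on 3R from 22367536 to 22372746. Its peak covered the lower end and was 2624 bp wide in replicate 1 and 2712 bp in replicate 2, with folds of 3.93 and 3.84. The summits lay 1856 and 926 bp inside the gene, 930 bp apart, the largest distance between replicates among the members. An end of Polr3F, a gene 163 bp away for a subunit of RNA polymerase III, fell in the peak. At the upper end, 89 bp from the pyruvate kinase paralog CG7069, neither replicate had a peak.

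Ordered by the strongest peak, as the mean of the replicates, the genes ran Pfk (6.62), Tpi (6.41), Gapdh2 (4.51), Gapdh1 (4.48), Ald1 (4.18), PyK (3.88), Pgi (3.53), Hex-A (3.42), Eno (3.10) and Pgk (2.51). The replicate values of Pfk and Tpi overlapped, as did those of Gapdh2 and Gapdh1, of Gapdh1 and Ald1, and of Pgi and Hex-A, so that these neighbours were not separated by their spread. The other neighbours in the order did not overlap. The value of Eno joins different peaks, the one short of the gene in replicate 1 (3.23) and the one inside it in replicate 2 (2.96). As means of both replicates these peaks had 3.09 and 2.91, each between the values of Hex-A and Pgk. The value of Pfk comes from its peak inside the span. With peaks over or within 100 bp of an end only, Pfk had 3.85, below Tpi, Gapdh2, Gapdh1, Ald1 and PyK, the replicate values of PyK (3.93 and 3.84) falling between those of Pfk (3.98 and 3.72). Over the 10 genes the strongest folds of the replicates were correlated with a Spearman rho of 0.988 and a Pearson r of 0.985 on the log2 scale, a description over genes that share the same pair of libraries.

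**Figure D2:**
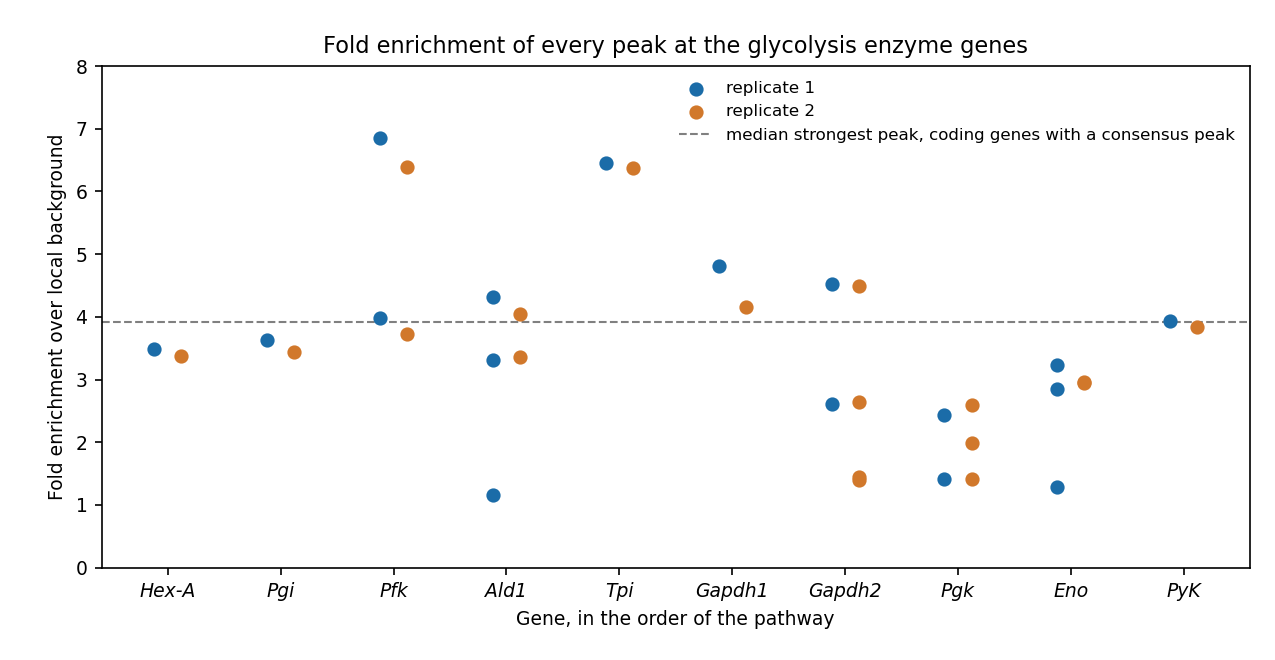
Fold enrichment over local background (linear axis from 0) of every peak at the glycolysis genes in pathway order, 1 point per peak, in replicate 1 (blue) and replicate 2 (orange), with the median strongest fold of protein-coding genes that have a consensus peak (3.92) as a dashed line. The strongest peaks of Pfk and Tpi stand above 6 in both replicates, and those of Pgk stay below 3.

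The fold of the strongest peak was not at one level across the pathway. The median strongest fold of the members was 4.03 (4.12 in replicate 1 and 3.94 in replicate 2), against 3.92 over the 9468 protein-coding genes with a consensus peak (25th to 75th percentile 2.82 to 5.04). Of the members, 5 were above that median. Set against the 5106 such genes of like length, with a median of 3.80, 6 members were above. Pfk exceeded 94.0% and Tpi 92.6% of protein-coding genes with a peak, whereas Eno, by its value from different peaks, exceeded 31.1% and Pgk 19.4%. By peaks at or near an end alone, Pfk exceeded 51.5% of the 8122 protein-coding genes with such a peak, and the 9 members that have one had a median of 3.88, against 3.79 for those genes. The 5 genes from Hex-A to Tpi had strongest folds of 3.42 to 6.62 (median 4.18) and the 5 from Gapdh1 to PyK had 2.51 to 4.51 (median 3.88), ranges that overlap.

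At the 15 consensus peaks, the ratio of fold in replicate 1 to that in replicate 2 was 0.935 to 1.15 with a median of 1.02, against a median of 1.03 over all consensus peaks. It was above 1 at 11 peaks and below at 4. The -log10 q was 1.72 to 2.83 times as high in replicate 1 at every peak. The summits of the replicates were within 150 bp of each other at 13 of the 15, all but those at Pgi and PyK, with a median distance of 20 bp.

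The open regions at these genes were wide. The median width of the 15 consensus peaks was 2015 bp, and 14 were wider than the 918 bp median of all consensus peaks, the small peak inside Pgk being the exception. The 9 peaks over an end of a member were 1397 bp or wider, with a median of 2115 bp. All 9 were wider than the median of 1287 bp over the 5722 consensus peaks that cover an end of a protein-coding gene. All but those of Hex-A and Gapdh2 also held an end of another gene, and the 5722 were not split by such sharing. The part of sharing in the width was not tested. Consensus peaks covered 21.9% (Hex-A) to 100% (Gapdh1) of the members' spans, with a median of 42.2%, against a median of 20.9% for protein-coding genes with a peak and 22.4% for those of like length. In 9 of 10 members the share exceeded 22.4%. Both background medians include genes whose peaks lay only beyond the span. Of the 5106 genes of like length with a peak, 4659 had one touching the span, whereas all 10 members had. Like the counts above, these widths are descriptions without a test.

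**Figure D3:**
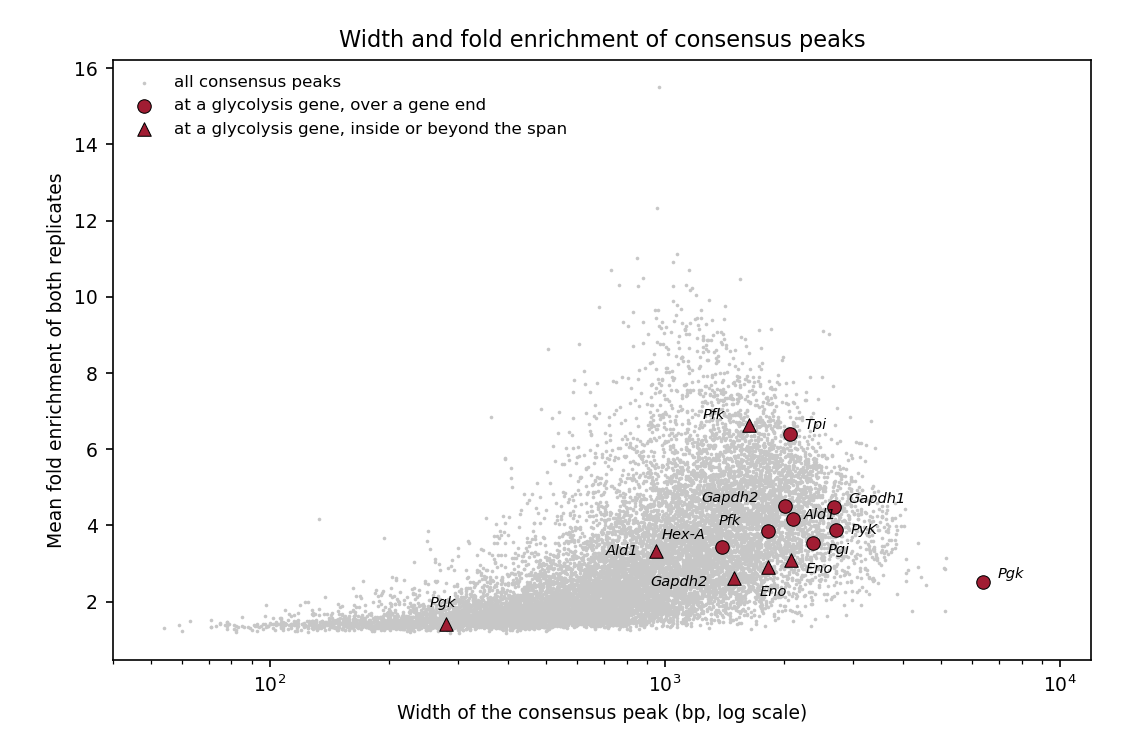
Mean fold enrichment of both replicates against width (bp, log scale) for the 15 consensus peaks at glycolysis genes, over a gene end (circles) or inside or beyond the span (triangles), and for all 14656 consensus peaks (grey). Most of the 15 are 1397 to 2719 bp wide, the inside peak of Pfk and the peak of Tpi lie above 6, and the 6389 bp peak of Pgk lies to the right of every other peak.

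Many of the peaks were shared with neighbours. An end of another gene fell inside 10 of the 15 consensus peaks, against 44.0% of the 18563 pairs of a protein-coding gene and a consensus peak in its window. The 5 without one were the peak of Hex-A, the inside peaks of Pfk, Ald1 and Pgk, and the main peak of Gapdh2. At the other 10 the peak lists cannot tell apart open chromatin of the glycolysis gene from that of its neighbour. The pairs behind the 44.0% were matched neither for gene length nor for the place of the peak.

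Another 34 genes around the pathway were looked up for comparison, and 28 had a consensus peak, against 68.0% of protein-coding genes. These genes were not matched for length. Of the phosphoglycerate mutases, which carry out the step between Pgk and Eno, Pglym78 had a peak over an end with folds of 4.77 and 4.83 and Pglym87 had no peak in either replicate. The 7 regulators of glycolytic genes all had an end covered, against 56.2% of protein-coding genes. The strongest peak of sima, the fly HIF-alpha, lay inside its span (7.44 and 7.47), with 5.09 and 5.20 at or near an end. Peaks over an end were the strongest at tgo, its partner (5.17 and 5.33), at ERR, the nuclear receptor that drives glycolytic genes in larvae (5.35 and 5.70), and at bigmax, the partner of Mondo in sugar sensing (3.64 and 3.28). The strongest peak of sug also covered an end (3.46 and 3.37). Mondo and crc share 1 peak between them (6.04 and 5.60). Ends of other genes also lay in the peaks of Pglym78 (CG11882), ERR (Atg18a), bigmax (Hmu) and sug (CG13319 and NAT1).

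Several paralogs of the enzymes are known for expression in testis. With 500 bp added on both sides, 10 of 10 members and 5 of 10 paralogs had a consensus peak, against 68.0% of protein-coding genes. A consensus peak touched the span of 10 of 10 members and 2 of 10 paralogs, against 61.3% of protein-coding genes. These paralogs were Hex-C (2.74 and 2.85, covering 6.97% of its span) and Hex-t2 (4.19 and 3.79), and both peaks also held ends of other genes. The peaks of CG2964, CG7069 and CG12229 lay beyond the span, and Hex-t1, Ald2, CG9961, CG7362 and CG11249 had none. CG9961, a Pgk paralog, lies 1946 bp from Pgk. The difference was not tested, because both lists were chosen with results of these data known.

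All 14 genes that branch off the pathway or run it in reverse had a consensus peak, against 68.0% of protein-coding genes. An end was covered at 11 of them, against 56.2%. The consensus peak of Tps1 lay beyond the span, reached the window in replicate 1 only and held ends of CG3652 and l(2)k05819. The glycerol phosphate shuttle, which reoxidises NADH, had the highest folds of these, at Gpo1 (7.60 and 7.39) and Gpdh1 (7.18 and 6.60). The glycogen genes GlyP, the phosphorylase (4.71 and 4.72), and GlyS, the synthase (4.39 and 4.35), lay above the median of the members. Gluconeogenic fbp, the bisphosphatase that opposes Pfk, had 2.16 and 2.32. In the pentose phosphate branch, Zw, glucose phosphate dehydrogenase, had 1.46 and 1.38 and Pgd 2.17 and 1.98, all below the weakest member. Ldh, lactate dehydrogenase, which interconverts pyruvate and lactate, had an end covered by a peak with folds of 2.86 and 2.74. These were below the strongest values of every member except Pgk. The peak inside the span of Eno had 2.85 in replicate 1, below Ldh, and 2.96 in replicate 2, above it. Ends of other genes also lay in the peaks of Ldh (lncRNA:CR44522) and Zw (asRNA:CR44512).

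**Figure D4:**
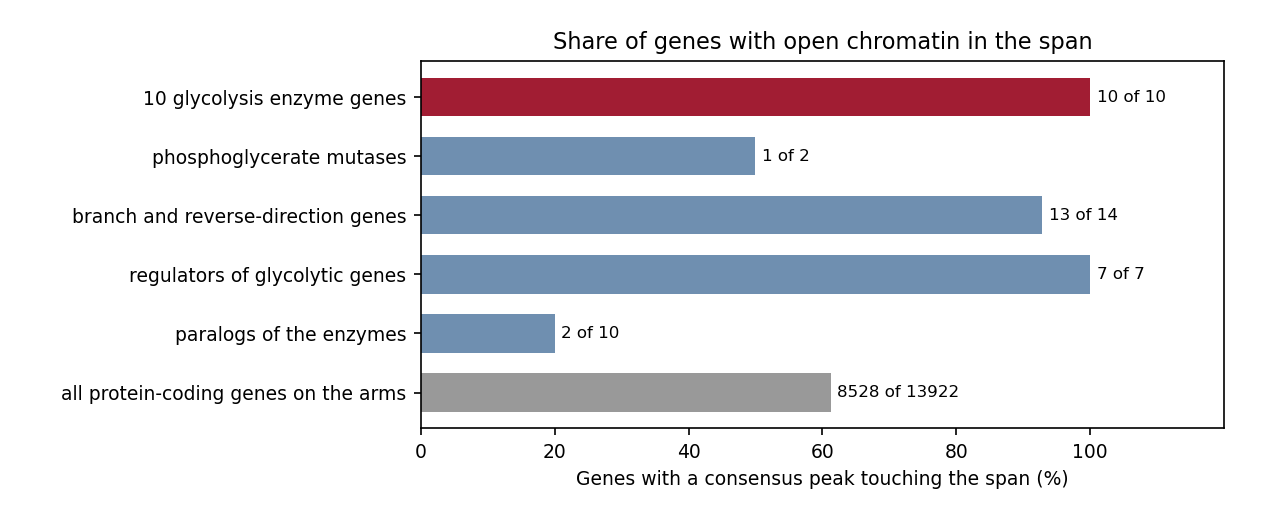
Percent of genes with a consensus peak touching the span (linear axis from 0), with the counts beside the bars, for the glycolysis genes (red), other lists of the pathway (blue) and all protein-coding genes on the arms (grey). The bars show 10 of 10 glycolysis genes, 2 of 10 paralogs and 8528 of 13922 protein-coding genes.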

How the data were processed

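ATAC-seq of MB nuclei of naive control flies was used, 1 group with 2 replicates. Per the study's methods and the submitters' processing notes, adapters were removed by the authors (Trimmomatic 0.39) before alignment to release 6, dm6 (Bowtie2 2.4.1). Reads were shifted by 4 and -5 bp for the transposase cut, and duplicates, multi-mapping and mitochondrial reads were dropped. Peaks were called by replicate (MACS2 2.1.2, q of 0.01, minimum length 50 bp, maximum gap 100 bp). The deposited values are fold enrichment (a ratio to local background), -log10 p-value, -log10 q-value, a score (10 times the -log10 q-value, rounded down) and the summit. Counts of reads are not part of the lists, so that no count model, interval or test was possible. The -log10 q-value grows with depth, and fold enrichment was used to describe and order peaks.

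Genes came from the RefSeq table of release 6, which gives no strand, transcripts or exons. Neither sequences of peaks and promoters nor the planned motif search were analysed here. Consensus peaks were merged regions of peaks overlapping by at least 1 bp with a peak of each replicate. The strongest fold of a gene is the highest per replicate in its window, averaged over the replicates. The members, gene lists and markers were chosen with earlier results of these data known. The genes named are the members, the fixed lists and neighbours that share a peak. Alternatives were no added bases, a window of 1000 bp, a reciprocal overlap of 50%, -log10 q of at least 5 and 10, equal numbers of peaks, each replicate alone, ends within 100 bp, other fold measures and other gene backgrounds. The consensus and window rules were tested on simulated intervals. Software was Python 3.11.15 with pandas 2.3.3, numpy 2.4.6, scipy 1.17.1 and matplotlib 3.10.9.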

Additional observations from a re-analysis of the deposited data

How the results depend on the processing

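The counts of members with a consensus peak (10 of 10), of their consensus peaks (15, or 13 to 18 over the alternatives) and of members with an end covered (9) stayed within 1.5 times their value under every alternative run for them. Taking either end of the span was itself the rule used, since the gene table has no strand. The percent of genes on the arms with a consensus peak, 62.3%, moved to 54.9% with no added bases, 67.2% with 1000 bp, 60.5% with a reciprocal overlap of 50%, 58.9% with a -log10 q of at least 10 and 61.8% to 64.3% with 1 replicate alone. It was 68% over protein-coding genes and 74.7% over those as long as the members, a background added after seeing the data. The median strongest fold of the members, 4.03, was 3.67 as the mean over each gene's consensus peaks and 3.88 over peaks at or within 100 bp of an end, which leaves out Eno. Over such peaks Pfk had 3.85 in place of 6.62 and was no longer the highest member, and protein-coding genes had a median of 3.79, a background added after seeing the data. Over all peaks the median was 3.94 to 4.12 with 1 replicate alone. The strongest fold of Eno was 2.91 with no added bases, against 3.10. No paired analysis was possible because there was 1 condition. The study's read totals differ between the libraries and are not tied to a replicate, and the part of depth in the weak peaks found in replicate 1 alone was not tested.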
